A study of Mus musculus with 384 samples.

Results

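The ligand, receptors, SMAD proteins and SMAD inhibitors of the TGF-β pathway were followed in regulatory T (Treg) cells of mouse ear skin. The genes were taken by symbol from the gene list of the count matrix, which held 50556 symbols, 30597 of them with a count in any well. All 9 listed genes were present and had counts: Tgfb1, Tgfbr1, Tgfbr2, Smad2, Smad3, Smad4, Smad7, Ski and Skil. Mice received 5% imiquimod, which gives a psoriasis-like inflammation, or vehicle on the ear skin, and Treg cells were sorted from that skin on day 3. Plates IMQ and IMQ1 held imiquimod cells and plates VEH and VEH2 held vehicle cells, with 87 wells of a single cell each. Wells of 10 cells (4 sets of 4, labelled POS, POS2, POS3 and POS4) and 20 wells without a cell carried no treatment label. The design text names 2 imiquimod and 2 vehicle mice and ties no plate to a mouse, so the plate was the replicate (n = 2 per treatment). Strain, age, sex and the sort gate are not given in the sources used here, and all single-cell and ten-cell wells are labelled as Treg cells.

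TGF-β is secreted in a latent form, and once freed it brings the type II receptor (Tgfbr2) and the type I receptor (Tgfbr1) together at the cell surface. The type I receptor then phosphorylates Smad2 and Smad3, which bind Smad4 and enter the nucleus to act on target genes. Smad7 blocks the type I receptor, and the nuclear proteins Ski and SnoN (encoded by Skil) repress SMAD complexes on DNA. In T cells the pathway takes part in inducing Foxp3, the transcription factor of the Treg lineage, and Itgae, the integrin chain CD103 of T cells that stay in epithelia.

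Of the single-cell wells, 38 on IMQ, 44 on IMQ1, 62 on VEH and 58 on VEH2 passed a filter of 500 detected genes and 10000 counts and are called kept cells. The 82 imiquimod and 120 vehicle cells held 47481 to 5946386 counts each. Median gene numbers were 975.0 and 1093 on the imiquimod plates and 1040.0 and 1503 on the vehicle plates. At least 1 of 6 Treg markers had a count in 86.1% of kept cells, and at least 1 of 9 T cell markers in 94.1%. Transcripts of the 4 haemoglobin genes used as erythroid markers were detected in 55.3% and 45.5% of imiquimod cells against 3.23% and 22.4% of vehicle cells. At least 1 of 5 mast cell markers was found in 5.26% and 4.55% of imiquimod cells against 29.0% and 25.9% of vehicle cells, with Mcpt4, Tpsb2 and Fcer1a at 0. The part of these differences in the results on the TGF-β genes was not tested, other than by leaving out cells with an erythroid count where stated.

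Each TGF-β pathway gene was seen in a minority of single cells, and the inhibitor Skil was seen most often. Skil transcripts were counted in 28.7% of these 202 cells, Smad4 in 20.8%, Tgfbr2 and Smad3 in 18.3% each and Ski in 16.8%. Tgfbr1 and Smad7 followed with 15.8% each, while Tgfb1 was seen in 7.43% and Smad2 in 6.44%. Foxp3 was detected in 37.1% and Itgae in 33.7% of the same cells. In the 20 empty wells the only count of any of the 9 genes was 1 read of Smad3 in a well of set CTRL4, and a count of 0 in 20 wells allows a share of up to 15.0%. Intervals and limits cover counting error in the number of cells or wells only, and not the spread between plates. At least 1 of the 9 genes had a count in 66.8% of the cells, namely in 59.8% of imiquimod and 71.7% of vehicle cells. By plate the share was 39.5% on IMQ and 77.3% on IMQ1, against 69.4% on VEH and 74.1% on VEH2, so that IMQ alone was low.

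Fewer imiquimod than vehicle cells had a count of 6 of the 9 genes, with no overlap between the plates of the treatments. Beside this count, 46.8% of the 9745 genes seen in at least 10 kept cells were lower on both imiquimod plates and 5.34% were higher on both. The median difference over these genes was -4.24 percentage points, imiquimod minus vehicle. The 6 genes were Tgfbr2, Smad2, Smad3, Smad4, Smad7 and Skil. For each the exact two-sided permutation p was 0.333, the smallest that 2 plates against 2 allow. Leaving out cells with an erythroid count was an alternative chosen after seeing the data. It left 17, 24, 60 and 45 cells on IMQ, IMQ1, VEH and VEH2. Of the 9 genes, 4 were then without overlap (Smad2, Smad3, Smad4 and Skil). The share of all genes under this filter was not computed, so this count has no background and cannot be read as particular to these genes.

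The ligand gene Tgfb1 was detected in 1 of 38 and 3 of 44 imiquimod cells against 4 of 62 and 7 of 58 vehicle cells, and the plates overlapped. Tgfbr1, the type I receptor kinase, was found in 3 and 6 imiquimod cells against 7 and 16 vehicle cells on the same plates. Its difference of -8.67 points was within the spread, because the IMQ1 share of 13.6% lay above the VEH share of 11.3%. Tgfbr2, the ligand-binding type II receptor, was found in 5 and 8 imiquimod cells against 12 and 12 vehicle cells, or 15.7% ± 3.55 against 20.0% ± 0.944 (SD, n = 2 plates each). The Tgfbr2 difference of -4.35 points was about that of the median gene.

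The widest gaps in detection were those of Smad3 and Smad4. Smad4, the partner shared by all signalling SMADs, had a count in 3 and 6 imiquimod cells against 13 and 20 vehicle cells. Its mean share was 10.8% ± 4.06 in imiquimod and 27.7% ± 9.56 in vehicle (SD, n = 2 plates each), a difference of -16.96 points. Smad3, a receptor-activated SMAD that binds DNA directly, had a count in 4 and 3 imiquimod cells against 15 and 15 vehicle cells. Its mean share was 8.67% ± 2.62 in imiquimod and 25.0% ± 1.18 in vehicle (SD, n = 2 plates each), a difference of -16.4 points. Both gaps were also present among cells of at least 1000 genes, with differences of -28.6 points for Smad4 and -21.6 points for Smad3. After each cell was thinned to 200000 counts, which left out 7 shallower cells, Smad4 had a count in 7.59% of imiquimod and 23.3% of vehicle cells. Smad3 then had a count in 3.80% of imiquimod and 20.7% of vehicle cells. Smad2, the other receptor-activated SMAD, was detected in 1 and 0 imiquimod cells against 6 and 6 vehicle cells, and 0 of 44 cells allows a share of up to 6.82%.

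Among the inhibitors, Smad7 and Skil were detected at 1 count less often on both imiquimod plates and Ski was not. Smad7 had a count in 3 and 6 imiquimod cells against 15 and 8 vehicle cells, and its nearest plates, IMQ1 with 13.6% and VEH2 with 13.8%, were almost level. Ski had a count in 1 and 9 imiquimod cells against 15 and 9 vehicle cells, so that IMQ alone stood apart. Without IMQ the mean difference for Ski was 0.60 points, against -8.31 points with it. Skil had a count in 5 and 12 imiquimod cells against 22 and 19 vehicle cells, or 20.2% ± 9.98 against 34.1% ± 1.93 (SD, n = 2 plates each). After thinning, Skil had a share of 19.6% ± 7.58 in imiquimod and 23.2% ± 5.53 in vehicle, and the plates overlapped, with 25% on IMQ1 and 19.3% on VEH2. At a threshold of 10 CPM (counts relative to the cell's total) the shares of Skil were 16.6% in both treatments, with a difference of -0.00279 points. Under 5 reads of Skil were found in 2 of 17 imiquimod cells with a count and in 14 of 41 vehicle cells with one.

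**Figure D1:**
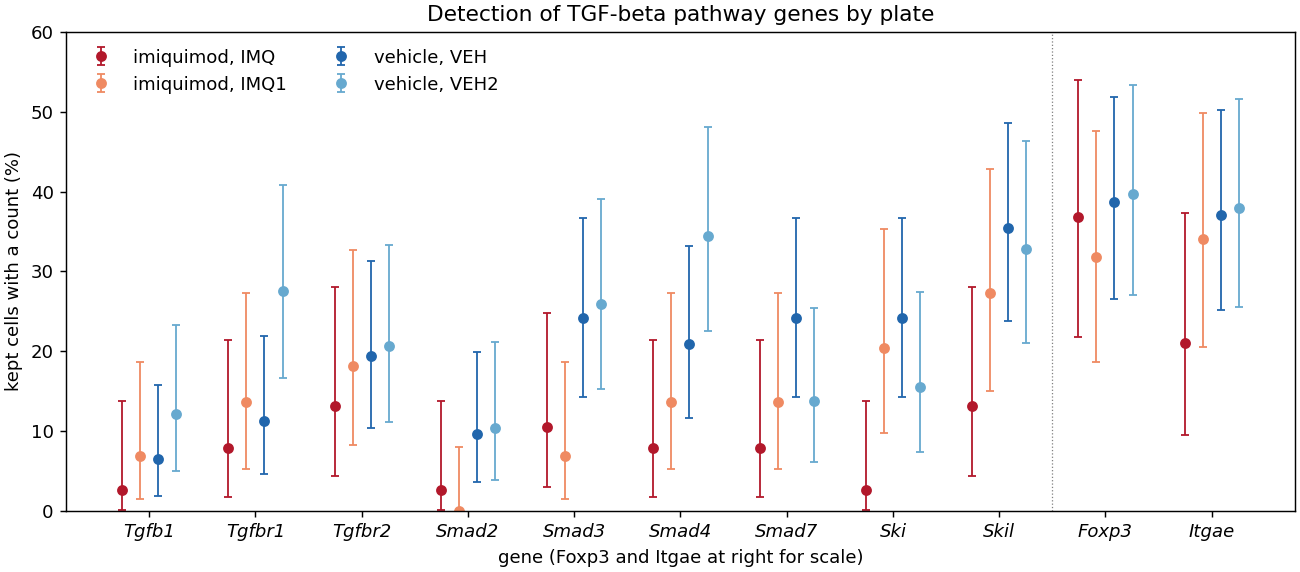
Share of kept cells with at least 1 count (vertical axis, percent) for each gene on the 4 plates, imiquimod plates in red and orange and vehicle plates in blue; bars are exact 95% binomial intervals, which cover counting error only. Smad3 and Smad4 show the widest gaps between the treatments, while Tgfb1, Tgfbr1 and Ski overlap.

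Over all kept cells, cells with a count of a TGF-β gene had a higher median number of genes than cells without one, for each of the 9 genes. Cells with Skil had a median of 1792 genes against 981 in cells without it, and for Smad2 the medians were 3006 and 1087. The same held for the partner genes, with 1993 against 945 genes for Foxp3 and 1688 against 952 for Itgae. On the vehicle plates this held for each of the 9 genes, but not on the imiquimod plates. On IMQ, cells with Tgfbr1 had a median of 567 genes against 1002 in cells without it, and Smad4 gave the same medians. On IMQ1, cells with Tgfbr2 had 1044.5 against 1101 genes and cells with Smad7 916.5 against 1101.

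Within the cells that had a count, levels ran over several orders of magnitude, so that plate levels often rested on 1 cell. The median level was highest for Tgfbr1, at 278 CPM over 32 cells, followed by Ski with 213 CPM, Smad2 with 197 CPM and Smad7 with 176 CPM. It was 46.7 CPM for Smad4, 45.5 CPM for Tgfb1, 26.5 CPM for Smad3, 25.6 CPM for Skil and 16.3 CPM for Tgfbr2. Foxp3 and Itgae lay higher, with medians of 610 and 705 CPM in cells with a count. Tgfbr2 levels spanned 0.241 to 20827 CPM, and 16 of its 37 cells held fewer than 5 reads. A single cell supplied 99.5% of all Tgfbr2 reads on IMQ and 91.7% on IMQ1, against 58.4% on VEH and 46.4% on VEH2. A single cell likewise held 93.7% of the Smad3 reads on IMQ and 96.98% of the Tgfb1 reads on VEH. Of the Smad4 reads on IMQ, all but 2 of 6001 came from 1 cell.

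For Tgfb1, Smad2, Smad7 and Skil the order of treatments in median level of cells with a count was opposite to that in detection. Tgfb1 cells had a median of 2022 CPM in imiquimod (4 cells) and 35.5 CPM in vehicle (11 cells). Smad2 had 352 CPM in 1 imiquimod cell and a median of 139.2 CPM in 12 vehicle cells. In plate sums Smad2 instead went the way of detection, with 15.9 and 0 CPM for imiquimod against 33.3 and 34.5 CPM for vehicle. Smad7 cells had a median of 606 CPM in imiquimod (9 cells) and 173.8 CPM in vehicle (23 cells). Skil cells had a median of 103.8 CPM in imiquimod (17 cells) and 9.26 CPM in vehicle (41 cells). Smad3 cells had 4.39 CPM in imiquimod (7 cells) and 51.6 CPM in vehicle (30 cells). That order did not hold by plate, where the Smad3 medians were 5294 CPM on IMQ and 0.655 CPM on IMQ1, against 11.4 CPM on VEH and 523 CPM on VEH2. These medians are over cells and carry no test.

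**Figure D2:**
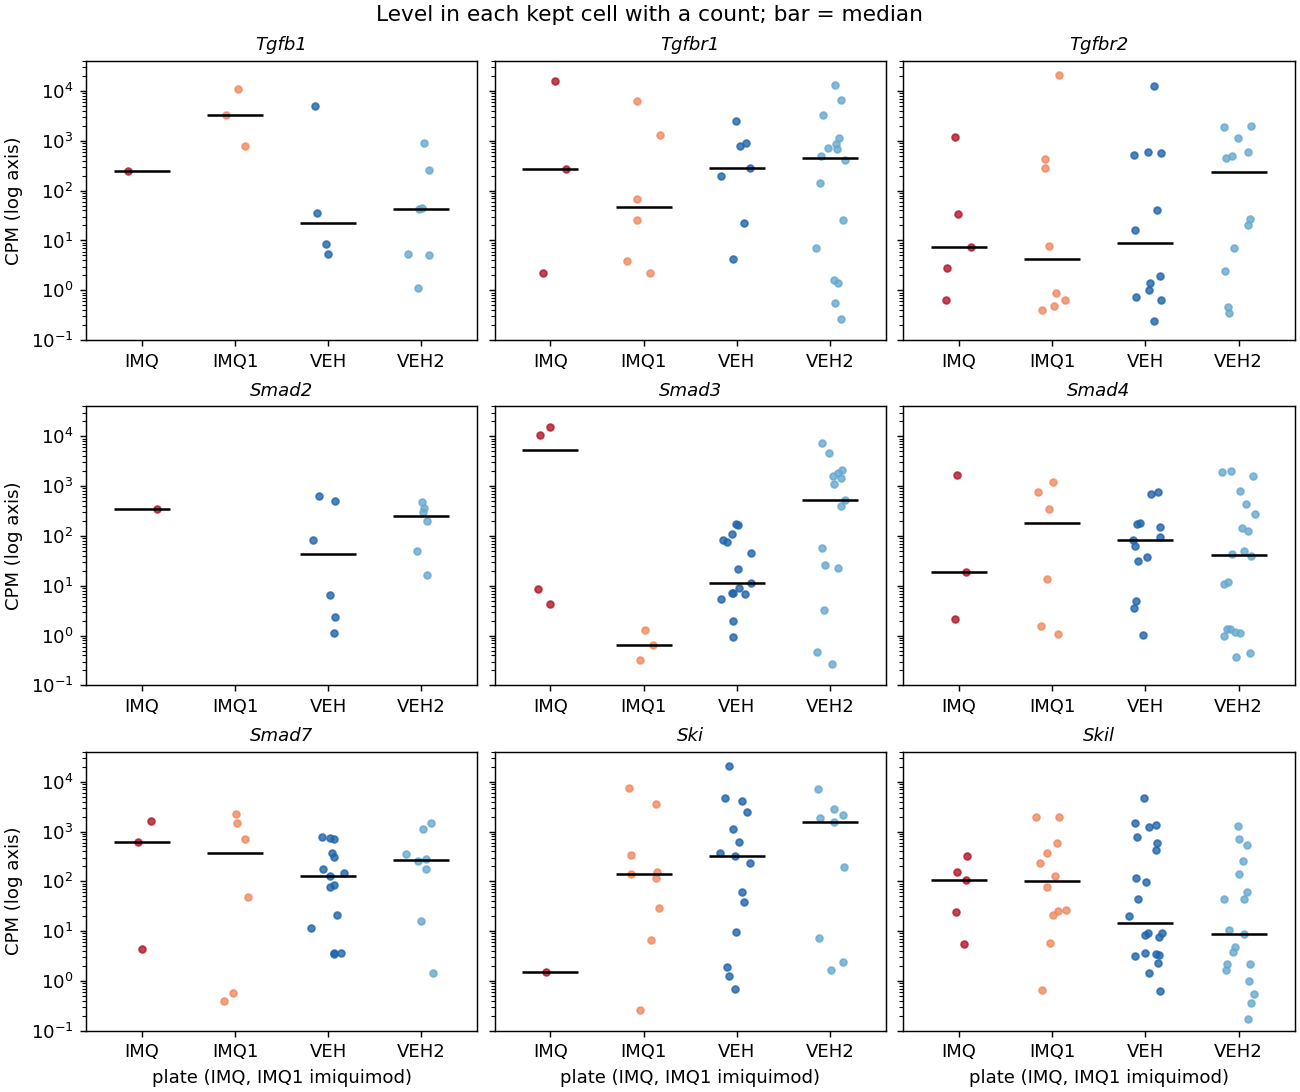
Level of each TGF-β gene in every kept cell with a count (vertical axis, CPM on a log axis) by plate, with imiquimod plates IMQ and IMQ1 left of vehicle plates VEH and VEH2; each point is a cell and the bar is the median of the plate. Levels within a plate can run from under 1 to above 10000 CPM, and the lowest medians are those of Smad3 on IMQ1 and the lone Ski cell on IMQ.

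No TGF-β gene passed the test for a treatment difference in level. Plate sums of the kept cells were compared by edgeR's quasi-likelihood test across 14462 genes, of which it called 0 (0%) at an adjusted p under 0.05. Without adjustment 1669 genes lay under 0.05, DESeq2 called 3740 (25.9%) and limma 0. None of the 9 genes was called by DESeq2 or limma either, and their adjusted p by edgeR's quasi-likelihood test was at least 0.793. The median log2 fold change of all genes was -0.26 with edgeR's scaling and 0.11 with DESeq2's size factors, and 46.6% of genes were positive. Among the 9 TGF-β genes 5 were positive, with a median of 0.19. In levels, only Smad2 was lower on both imiquimod plates (31.1% of all genes were) and only Smad7 was higher on both (13.7% of all genes were).

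For Tgfb1 the levels on IMQ and IMQ1 were 21.2 and 297 CPM, and those on VEH and VEH2 were 46.6 and 26.7 CPM, a log2 fold change of 2.12 ± 2.25 (SE). It stood high on IMQ1 alone. Tgfbr2 reached 131.5 and 359.9 CPM in imiquimod, while VEH and VEH2 held 132.1 and 140.4 CPM (log2 fold change 0.85 ± 1.52, SE). Tgfbr1 levels were 24.9 and 242 CPM for imiquimod against 67.9 and 251 CPM for vehicle (-0.26 ± 1.82), with 1 plate of each treatment at the higher level. The log2 fold change of Tgfbr2 became -1.74 when the highest cell of each plate was left out.

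Among the SMAD genes, Smad7 stood at 192 CPM on IMQ and 119.4 CPM on IMQ1, above the 66.5 CPM on VEH and 57.3 CPM on VEH2, with a log2 fold change of 1.33 ± 1.99 (SE) and an adjusted p of 0.869 by edgeR's quasi-likelihood test. Smad2 levels were 15.9 and 0 CPM for imiquimod against 33.3 and 34.5 CPM for vehicle (-2.09 ± 3.66). Smad3 differed most between plates of a treatment. IMQ held 284 and IMQ1 0.0429 CPM, while VEH held 13.5 and VEH2 236 CPM, a log2 fold change of 0.19 ± 2.46 that became -2.74 without the highest cell of each plate. Smad4 levels were 128.4 and 78.6 CPM for imiquimod against 53.7 and 96.4 CPM for vehicle (0.46 ± 2.15), a value that became -1.28 without those cells.

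The nuclear repressors differed by plate as much as by treatment. For Ski, IMQ held 0.0214 and IMQ1 266 CPM, while VEH held 329 and VEH2 257 CPM (log2 fold change -1.14 ± 2.16, SE). The value on IMQ was a single read. Without IMQ1 the fold change of Ski became -13.55 with an adjusted p of 0.000102 by edgeR's quasi-likelihood test, the only such value to pass the threshold among the alternative fits of the 9 genes. The imiquimod arm was then the IMQ plate alone, with its single Ski read, which was assumed to vary like the vehicle plates, and that fit called 794 genes. Skil levels were 13.9 and 198 CPM for imiquimod against 133.8 and 78.9 CPM for vehicle (-0.01 ± 2.09), and its sign turned with DESeq2's size factors (0.21). For comparison, Foxp3 had a log2 fold change of 1.05 ± 0.72 and Itgae of 0.89 ± 0.70, neither past the threshold.

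Tgfbr2 was detected more often in cells with Foxp3 than in other cells, on each of the 4 plates. It had a count in 33.3% of 75 Foxp3-detected cells against 9.45% of the other kept cells. By plate the numbers were 4 of 14 Foxp3-detected against 1 of 24 other cells on IMQ, and 4 of 14 against 4 of 30 on IMQ1. On the vehicle plates they were 9 of 24 against 3 of 38 on VEH and 8 of 23 against 4 of 35 on VEH2. The mean difference was 23.2 ± 5.94 points (SD, n = 4 plates), with an exact sign-permutation p of 0.125, the smallest that 4 plates allow. It lay above the same difference of 96.7% of 9744 genes, whose median was 5.38 points, and above that of 86.2% of 6146 genes after thinning to 200000 counts. These ranks are not matched for detection share. Tgfbr2 was seen in 18.3% of kept cells, while the median share of genes in at least 10 kept cells was 7.36% in imiquimod and 11.6% in vehicle. A gene seen in few cells cannot show a wide difference in points. The difference was 19.6 ± 7.60 points among cells of at least 1000 genes, 14.4 ± 4.24 points after thinning and 14.8 ± 1.81 points at a threshold of 10 CPM, and was positive on 4 of 4 plates each time (13.2% of all genes were so among cells of at least 1000 genes and 21.1% after thinning). Leaving out each plate in turn gave 21.0 to 25.8 points. Without cells that had an erythroid count it was 12.5 ± 13.0 points and positive on 3 of 4 plates. On IMQ 1 of the 14 Foxp3-detected cells was left by that filter, and on IMQ1 4 of 14.

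The mean difference was positive for 9 of the 9 genes, as it was for 83.9% of all genes. A higher share on 4 of 4 plates was found for 4 of the 9 genes (Tgfb1, Tgfbr2, Ski and Skil), against 23.5% of all genes. Tgfb1 was seen in 13.3% of Foxp3-detected against 3.94% of other cells, a mean difference of 9.20 ± 1.62 points with little spread between plates. Ski was seen in 25.3% of Foxp3-detected against 11.8% of other cells (13.0 ± 8.10 points), and Skil in 37.3% against 23.6% (11.5 ± 14.3 points). The difference for Skil shrank to 0.66 ± 21.8 points among cells of at least 1000 genes, with 2 plates up and 2 down, and it was 4.59 points without VEH2. Without cells that had an erythroid count, Ski had 3.39 ± 15.1 points and was higher on 2 plates and lower on 1, and Smad4 had 6.68 ± 17.3 points with 2 plates up and 2 down. Smad4 had 30.7% against 15.0%, Smad7 22.7% against 11.8% and Smad2 10.7% against 3.94%, each higher on 3 plates. Their mean differences were 12.2 ± 14.4, 9.58 ± 7.32 and 5.75 ± 4.78 points (SD, n = 4 plates).

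Tgfbr1 and Smad3 differed from Tgfbr2 in that the sign of their difference followed the treatment. Tgfbr1 was found in 0 of 14 and 1 of 14 Foxp3-detected imiquimod cells, against 3 of 24 and 5 of 30 other imiquimod cells. In vehicle it was found in 4 of 24 and 11 of 23 Foxp3-detected cells, against 3 of 38 and 5 of 35 other cells. The differences were therefore -12.5 and -9.52 points on the imiquimod plates and 8.77 and 33.5 points on the vehicle plates. Smad3 had -5.36 and -10 points on the imiquimod plates and 1.32 and 29.2 points on the vehicle plates. For both genes this pattern of signs was lost after thinning and at 10 CPM, and for Smad3 also among cells of at least 1000 genes. At 1 count in all kept cells the pattern was shown by 10.3% of all genes. With Itgae in the place of Foxp3 it was shown by Tgfbr2 and Ski, and by 10.6% of all genes.

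Itgae-detected cells carried Skil more often, on each of the 4 plates. Skil had a count in 42.6% of 68 Itgae-detected cells against 21.6% of the other kept cells. By plate it was found in 2 of 8 Itgae-detected against 3 of 30 other cells on IMQ, 6 of 15 against 6 of 29 on IMQ1, 12 of 23 against 10 of 39 on VEH and 9 of 22 against 10 of 36 on VEH2. The mean difference was 18.5 ± 5.95 points (SD, n = 4 plates), with an exact sign-permutation p of 0.125, the smallest possible. It was above that of 92.7% of all genes, and above that of 75.3% among cells of at least 1000 genes. These ranks are not matched for detection share, and Skil, seen in 28.7% of kept cells, was detected more often than the median gene. The difference remained positive on 4 of 4 plates among cells of at least 1000 genes (8.05 ± 1.98 points), after thinning (20.7 ± 3.95 points) and at 10 CPM (18.4 ± 10.6 points). Of all genes, 11% were positive on 4 of 4 plates among cells of at least 1000 genes and 17.1% after thinning. Without cells with an erythroid count no Itgae-detected cell was left on IMQ, and the mean over the other 3 plates was 16.8 ± 13.4 points, positive on each.

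Smad4 was the other gene with a higher share in Itgae-detected cells on 4 of 4 plates, as 17.1% of all genes were. It had a count in 29.4% of Itgae-detected against 16.4% of other cells, with a mean difference of 10.2 ± 3.78 points that was 2.76 ± 7.50 points among cells of at least 1000 genes. Tgfbr1 was seen in 27.9% of Itgae-detected against 9.70% of other cells and Smad7 in 26.5% against 10.4%. Their mean differences of 13.8 ± 16.7 and 16.4 ± 20.0 points were positive on 3 of 4 plates each, with Tgfbr1 lower on IMQ and Smad7 lower on IMQ1. Tgfb1 had 13.2% against 4.48% (8.15 ± 5.70 points). The mean difference was positive for 7 of the 9 genes, as it was for 79.2% of all genes.

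Tgfbr2, in contrast, was about as frequent with and without Itgae, at 19.1% of Itgae-detected and 17.9% of other cells. Its mean difference was -0.28 ± 5.15 points, and among cells of at least 1000 genes it was -9.14 ± 6.87 points and negative on 4 of 4 plates. The difference with Foxp3 exceeded that with Itgae by 23.4 ± 2.64 points, on 4 of 4 plates (exact sign-permutation p = 0.125, two-sided, the smallest possible). The Foxp3 difference was above the Itgae difference on 4 of 4 plates for 1 of the 9 genes, and for 4.38% of 9743 genes compared. Smad3 had 17.6% of Itgae-detected against 18.7% of other cells, a mean difference of -2.16 ± 15.2 points. Foxp3 and Itgae themselves were detected together in 36 cells, where the product of their shares on each plate would give 25.3.

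**Figure D3:**
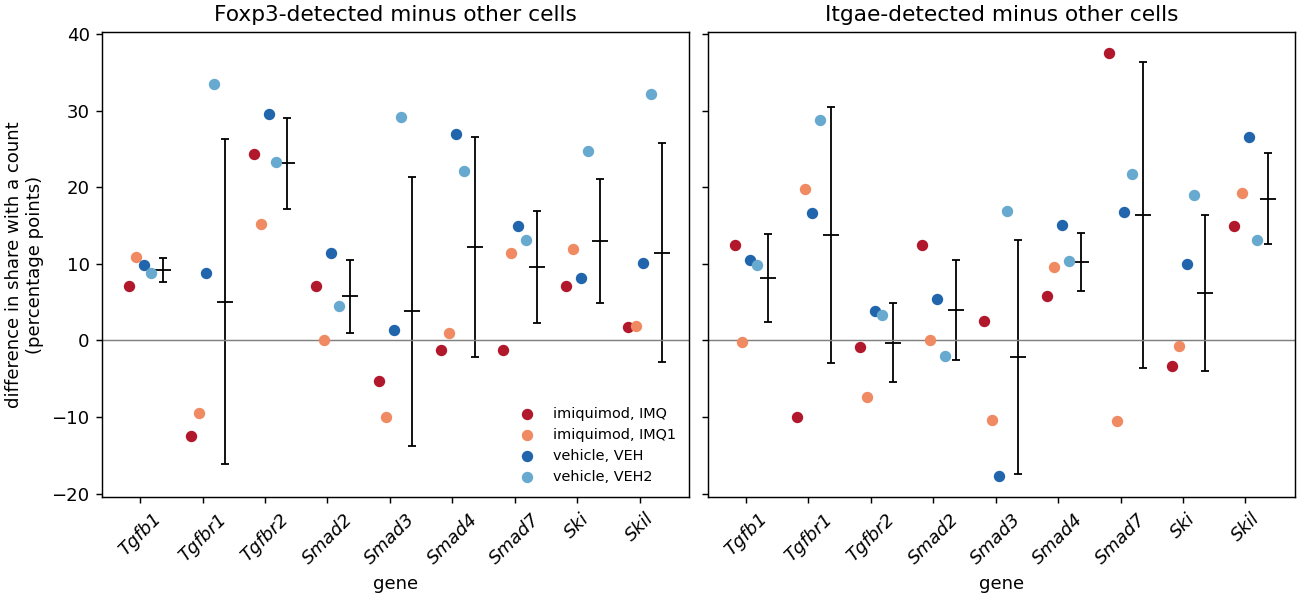
Difference in the share of cells with a count of each TGF-β gene (vertical axis, percentage points) between Foxp3-detected and other cells (left) and between Itgae-detected and other cells (right); each point is a plate and the black bar is the mean with the SD over 4 plates. Tgfbr2 lies above 0 on each plate on the left and close to 0 on the right, and Skil lies above 0 on each plate on the right.

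Complete sets of pathway components were rare in single cells. Both receptor genes were detected in 0 of 82 imiquimod cells and in 9 of 120 vehicle cells (7.50%). By plate these were 0 of 38 cells on IMQ (exact 95% interval 0% to 9.25%) and 0 of 44 on IMQ1 (0% to 8.04%). The vehicle plates had 3 of 62 on VEH (4.84%, interval 1.01% to 13.5%) and 6 of 58 on VEH2 (10.3%, interval 3.89% to 21.2%). These intervals cover counting error within a plate only. The product of the receptor shares would give 0.395 cells on IMQ and 1.09 on IMQ1, against 1.35 on VEH and 3.31 on VEH2. The difference between treatments was not tested. Of the 9 vehicle cells, 6 also held Smad2 or Smad3, and 4 held Smad4 in addition. At least 3 of the 9 genes were found in 6 imiquimod and 33 vehicle cells, 39 in all. These cells had a median of 2424 genes, against 753 in cells with none of the 9. The highest number in a cell was 8, on VEH.

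Pairs were most often made with Skil, the gene detected most. Smad3 and Skil were found together in 22 cells, against 11.6 from the product of their shares on each plate, and among cells of at least 1000 genes in 21 against 12.5. Smad4 and Smad7 were found together in 17 cells against 6.96, and among cells of at least 1000 genes in 15 against 8.43. Smad4 and Skil were found together in 20 against 13.2, and among those cells in 19 against 15.8. Of the 15 cells with Tgfb1, 11 also held Skil (4.66 from the product), and among cells of at least 1000 genes 10 did (5.47). Smad2 went with Skil in 2 cells only (4.23 from the product). Tgfbr2 and Smad7 were found together in 5 cells (6.04 from the product), and Tgfbr2 and Smad3 in 10 (7.08). Most pairs were in vehicle cells, with 20 of 22 for Smad3 and Skil, 15 of 17 for Smad4 and Smad7 and 10 of 11 for Tgfb1 and Skil. Cells with these genes had more genes in all, and no such excess over all gene pairs is given, so a link particular to these pairs was not tested.

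For Smad4 and Skil, both detected in at least 20% of kept cells, the genes of most similar level across the 202 cells were sought among 1558 genes. After centring within plates, log2(CPM + 1) of Smad4 correlated most with Vgll4 (Pearson r = 0.34), Wdpcp (0.34) and Skint5 (0.33). Skil correlated most with Hnrnpa2b1 (0.40), Hsp90aa1 (0.38) and Zfp36l1 (0.34). The points share plates and gene yield, the correlations are weak, and they are given as a description.

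In wells of 10 cells each TGF-β gene was detected in at least 8 of 16 wells. These wells held 710021 to 9159522 counts and a median of 6623.5 genes. Ski was found in 16 wells, Skil in 15, Smad4 in 13 and Smad7 in 12. Tgfb1, Tgfbr1 and Tgfbr2 were found in 10 each, Smad3 in 9 and Smad2 in 8. Expected numbers were taken for wells of 10 cells with the mean detection share of the kept cells on the 4 plates. By these, 13.1 wells would hold Ski, 13.8 Tgfbr2, 13.5 Smad3, 12.9 Tgfbr1, 8.25 Tgfb1 and 7.07 Smad2. For Skil, Smad4 and Smad7 the numbers were 15.3, 14.1 and 12.8. Ski, Tgfb1 and Smad2 were thus found in more wells than the kept-cell shares would give. The other genes were found in fewer, with Tgfbr2, Smad3 and Tgfbr1 furthest below. Cells within a well of 10 cannot be filtered in this way. Over all single-cell wells the shares were lower, at 11.8% for Tgfbr2, 12.4% for Smad3 and 9.77% for Tgfbr1. Lower shares would give fewer expected wells, and those numbers were not computed. The part of the filter in the shortfall was not tested. In wells of 10 cells, fewer cells with a transcript and less RNA per cell cannot be told apart.

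Ski was the most abundant of the 9 genes in the ten-cell wells. Its lowest, median and highest levels were 1.54, 203 and 3060.5 CPM. Smad7 had 0, 44.1 and 369 CPM, Smad4 0, 26.1 and 259 CPM and Tgfbr1 0, 11.9 and 583 CPM. The receptor gene Tgfbr2 had 0, 3.56 and 348 CPM, and Smad3 had 0, 6.92 and 846 CPM. Tgfb1 reached 204 CPM with a median of 9.14, Skil reached 421 CPM with a median of 8.22 and Smad2 reached 93.7 CPM with a median of 0.102. Skil was thus present in 15 wells but mostly at a low level, with 7 wells at 10 CPM or more, whereas 14 wells held that much Ski. Foxp3 was found in 16 wells, with a median of 518 CPM, and Itgae in 15, with a median of 570 CPM.

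The well sets differed, also in gene yield. The median was 4693 genes in POS3, against 8132.5 in POS, 7524 in POS2 and 6223.5 in POS4. The 4 wells of POS3 held Ski at a mean of 15.6 CPM, against 194 CPM in POS, 786 CPM in POS2 and 886 CPM in POS4. The POS4 mean rested on 1 well with 3060.5 CPM, and its other wells held 59.1, 145.9 and 279 CPM. In POS3, Tgfb1, Tgfbr1 and Smad3 were each detected in 1 of 4 wells. Tgfb1 was found in 3, 4 and 2 wells of POS, POS2 and POS4, and Smad3 in 3, 4 and 1. Foxp3 did not follow this order, with a mean of 653 CPM in POS3 and 588, 728 and 372 CPM in POS, POS2 and POS4. By the submitters' running sample numbers, POS3 lies among the wells of IMQ, the plate with a single Ski read. POS, POS2 and POS4 lie among those of VEH, VEH2 and IMQ1. No label gives these sets a treatment, and the part of yield or treatment in their differences was not tested. Both receptor genes were found in 6 of 16 wells (37.5%, exact 95% interval 15.2% to 64.6%). That interval treats the wells of all sets as alike and leaves out the spread between sets.

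Per length, Ski had the highest mean of the 9 genes in ten-cell wells, but with a wide spread between sets. Scaled to the longest coding transcript of GENCODE M21, Ski had 85.2 ± 77.9 CPM per kb (SD, n = 4 sets). By set it had 35.1 in POS, 142.3 in POS2, 2.82 in POS3 and 160.5 CPM per kb in POS4, where 1 well with 3060.5 CPM of Ski carried the value. In POS it lay below Smad3, which had 50.7 CPM per kb. Tgfb1 (27.9 ± 19.7), Smad3 (25.4 ± 26.9), Tgfbr1 (19.7 ± 16.8), Smad7 (18.6 ± 15.5), Smad4 (16.0 ± 11.0), Skil (12.1 ± 14.9) and Tgfbr2 (9.90 ± 8.29) came next in CPM per kb, and neighbours in this order did not differ beyond their spread. Smad2 was lowest with 1.90 ± 1.94 CPM per kb. Foxp3 and Itgae had 152.6 ± 39.9 and 213.5 ± 104.1 CPM per kb. In summed single cells Ski had 42.5 ± 29.5 CPM per kb and Tgfb1 43.6 ± 57.0 CPM per kb (SD, n = 4 plates). The Tgfb1 mean rested on IMQ1, with 6.78 and 128.4 CPM per kb on IMQ and IMQ1 against 23.4 and 15.7 CPM per kb on VEH and VEH2, and 1 cell held 57.4% of the Tgfb1 reads on IMQ1. Smad2 was lowest there too, with 2.83 ± 2.57 CPM per kb.

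**Figure D4:**
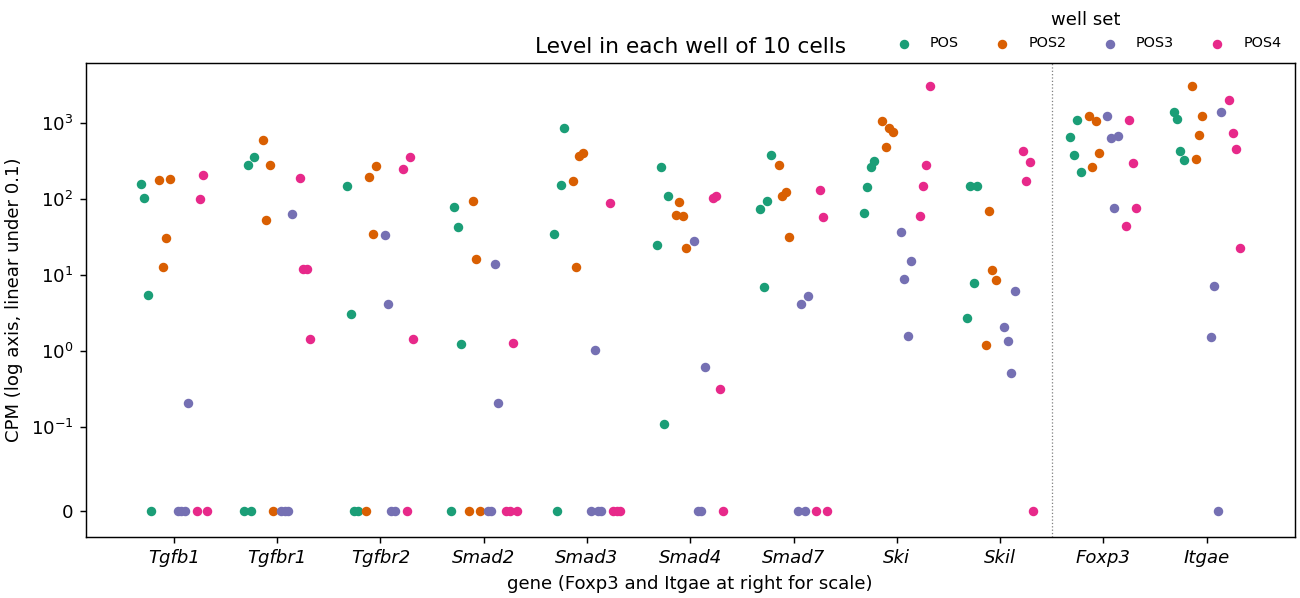
Level of each TGF-β gene, Foxp3 and Itgae in the 16 wells of 10 cells (vertical axis, CPM, log scale above 0.1 and linear below), coloured by well set; each point is a well. Ski is present in each well, POS3 lies low for most of the TGF-β genes, and Foxp3 lies at 43.3 CPM or more in each well.

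Other genes of the pathway passed the treatment test no more than the 9 did. Of 17 genes for further ligands, latency proteins and activators, 13 were tested, 6 had a positive log2 fold change and 0 were called by edgeR (median -0.54). The most abundant was Itgav, the integrin chain that helps to free latent TGF-β, with 688 CPM on IMQ and 2640.2 CPM on IMQ1, against 1491 CPM on VEH and 1001 CPM on VEH2. Nrros, which tethers latent TGF-β on myeloid cells, had 692 and 3.01 CPM against 65.4 and 99.4 CPM, and Furin, a protease that cuts the TGF-β precursor, a log2 fold change of 0.19 ± 1.34 (SE). Among further receptors of the family 13 of 14 genes were tested, 6 were positive and 0 called (median -0.36). Ldlrad4, an inhibitor of TGF-β signalling, had levels of 10.2 and 513 CPM for imiquimod against 321 and 350 CPM for vehicle. Acvr2a and Bmpr2, type II receptors for activins and bone morphogenetic proteins, had log2 fold changes of -2.76 ± 2.96 and 1.73 ± 3.01 (SE).

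Of 20 other SMADs and SMAD partners 18 were tested, with 6 positive and 0 called (median -0.36). In levels, 2 of the 18 were higher on both imiquimod plates (13.7% of all genes were) and 4 were lower on both (31.1% of all genes were). Tgif1, a corepressor of SMAD complexes, was among the 2. It stood at 681 CPM on IMQ and 309 CPM on IMQ1, above the 195 CPM on VEH and 172.7 CPM on VEH2. Its log2 fold change was 1.43 ± 1.15 (SE), with an adjusted p of 0.691 by edgeR's quasi-likelihood test. The histone acetyltransferase gene Crebbp had -1.35 ± 1.41, and Fkbp1a, whose product binds the type I receptor, had -0.21 ± 1.496. In the branch that does not use SMADs, 10 of 10 genes were tested, 8 were positive and 0 called (median 1.18). Its named genes were the kinase gene Map2k3 (0.26 ± 0.91), Tab2, a partner of the kinase TAK1 (1.61 ± 1.33), and the GTPase gene Rhoa (-1.64 ± 1.44).

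Among 20 genes that TGF-β is known to induce in various cells, 16 were tested, 9 were positive and 0 called (median 0.20). Junb, a subunit of AP-1, had levels of 2899.6 and 2896 CPM for imiquimod against 1616 and 1188 CPM for vehicle, with a log2 fold change of 1.05 ± 0.48 (SE) and an adjusted p of 0.435 by edgeR's quasi-likelihood test. Runx1, a transcription factor of T cells, had 0.06 ± 0.76 and the cell cycle inhibitor gene Cdkn1a 0.33 ± 0.93. All these counts stand beside 46.6% positive and 0% called among all genes tested.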

How the data were processed

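Counts of reads per gene and well were deposited by the authors as 1 matrix of 384 wells, and the labels' protocols describe oligo dT priming, template switching and amplification before tagmentation, with no mention of molecular identifiers. Reads were handled with Trimmomatic 0.39, STAR 2.7.3a and SAMtools 1.12 on mm39, per the submitters' processing notes. Which tool, strand setting and annotation gave the counts is not stated in the sources used here, so genes that overlap others are uncertain.

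Wells were grouped from the labels. Single-cell wells with at least 500 genes and 10000 counts were kept, and no doublet caller was run on sorted wells. A gene was detected at 1 count or more. Depths ranged from 67319087 to 99396458 counts per plate sum. Plate sums were tested with edgeR 4.0.16 (quasi-likelihood, default expression filter, TMM, Benjamini-Hochberg, threshold 0.05), with treatment as the only term. Plate levels are TMM-normalised CPM, single-cell and well levels are CPM of the well, and log2 fold changes are imiquimod over vehicle. DESeq2 1.42.0 and limma 3.58.1 (on the mean log2(CPM + 1) per cell) were alternatives, with other filters, thinning to 200000 counts and leaving out plates. Detection shares were compared by exact permutation over plates. Differences between cells with and without Foxp3 or Itgae were averaged over plates, and their exact permutation flips the sign of each plate. Intervals are exact binomial (95%), and floors are 3 counts of the total. Transcript lengths came from GENCODE M21 of GRCm38, older than mm39. The fitting code was tested on simulated data.

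The mouse behind each plate is not stated, so the tests set the treatments against the spread between plates, which may be technical. The 9 genes, the pathway and marker lists and the tests were chosen with earlier results of these data known. From each pathway list the 3 genes of highest mean CPM are named, since none passed the test, and genes most like a member were named by correlation.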

Additional observations from a re-analysis of the deposited data

Results flagged for a closer look

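Wells outside the comparisons held transcripts of the TGF-β genes. Among single-cell wells that were not kept, 27 had a count of at least 1 of the 9 genes, or 18.5%, against 1 of the 20 empty wells, or 5.00%. Of these, 26 held 1 gene and 1 held 2, and the median of not-kept wells with none of the 9 was 247 genes.

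In 4 cases the difference between cells with and without a partner gene had one sign on both imiquimod plates and the other on both vehicle plates. For Tgfbr1 the share in Foxp3-detected minus other cells averaged -11.01 points in imiquimod and 21.2 points in vehicle, which differ by -32.2 points. Among cells of at least 1000 genes the Tgfbr1 values were -16.004 points in imiquimod and 17.7 points in vehicle. After thinning they were -10.8 points in imiquimod and 10.3 points in vehicle, where VEH had -1.72 points. For Smad3 and Foxp3 the averages were -7.68 points in imiquimod and 15.3 points in vehicle, which differ by -22.9 points, and the signs no longer separated among cells of at least 1000 genes. For Itgae, Tgfbr2 averaged -4.09 points in imiquimod and 3.54 points in vehicle, which differ by -7.63 points. Ski with Itgae differed by -16.4 points, imiquimod minus vehicle. Among cells of at least 1000 genes neither pattern for Itgae was left. Ski then had -9.09 and 3.74 points on the imiquimod plates and -1.75 and 17.3 points on the vehicle plates, and Tgfbr2 was negative on all 4 plates, with -14.8 and -14.4 points on the imiquimod plates and -0.351 and -7.02 points on the vehicle plates. In each case the exact two-sided permutation p of the difference between treatments was 0.333, the smallest that 2 plates against 2 allow. The same pattern of signs was found in 10.3% of all genes for Foxp3 and in 10.6% for Itgae.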

How the results depend on the processing

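No paired analysis was possible because the plate labels share no replicate number between the treatments. Over all genes, 0 were called by edgeR's quasi-likelihood test, 9 without the expression filter and 3740 with DESeq2, and 0 to 794 when a plate was left out (794 without IMQ1 and 215 without IMQ). Among the alternative log2 fold changes of the 9 genes, 25 had the other sign, and 1 passed the threshold (Ski without IMQ1). Leaving out a plate gave -0.69 to 3.11 for Tgfb1, -2.56 to 1.00 for Tgfbr1, -11.34 to 3.38 for Smad3 and -2.84 to 0.99 for Skil. With limma on the mean log2(CPM + 1), the sign turned for Tgfbr2 (-0.39), Smad3 (-1.05), Smad4 (-0.90), Smad7 (-0.54), Foxp3 (-0.42) and Itgae (-0.76). Without the highest cell per plate it turned for Tgfbr2 (-1.74), Smad3 (-2.74), Smad4 (-1.28) and Skil (0.32). Among cells of at least 1000 genes it turned for Tgfbr2 (-0.19) and Skil (0.57). With all single-cell wells it turned for Tgfbr1 (0.043), Smad3 (-0.21) and Skil (0.48), and after thinning for Smad4 (-0.60). Skil also turned with DESeq2 (0.21), with its size factors in edgeR (0.21), without the filter (0.039) and among cells with a T cell receptor or CD3 count (0.088). The cause was not tested.

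The detection difference of Ski ran from -17.2 to 0.60 points when a plate was left out, and no other detection difference of a single gene changed sign under these alternatives. The number of genes lower on the imiquimod plates without overlap was 4 to 9 over 10 alternatives, and 6 to 9 when a plate was left out. Of all genes, 49.2% were lower on both imiquimod plates among cells of at least 1000 genes and 50.7% after thinning. For the other alternatives this share was not computed, so their counts have no background to be read against. With a plate left out its treatment was a single plate, so that a lack of overlap is easier to reach. The number with a higher mean share was 7 to 9 for Foxp3 and 7 to 9 for Itgae when a plate was left out. After thinning, Tgfb1 was seen in 13 cells instead of 15, Smad2 in 10 instead of 13, Tgfbr2 in 22 instead of 37 and Smad3 in 27 instead of 37.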
